A study of Mus musculus with 20 samples.

Results

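Zdhhc9, its close relatives Zdhhc14 and Zdhhc18, and the accessory genes Golga7 and Golga7b were followed in Zdhhc9 knockout and wild-type mouse white matter. The 5 genes were chosen by name, for the family and the partner proteins of the targeted enzyme, out of 46517 genes in the deposited table. All 5 passed the filter on low counts in both tissues. RNA was sequenced from 20 libraries in 4 groups, which were 6 Zdhhc9 knockout and 5 wild-type libraries of corpus callosum, the tract that joins the hemispheres, and 5 Zdhhc9 knockout and 4 wild-type libraries of optic nerve. The sample labels call the mice Zdhhc9 knockout, while the series description calls them a knockdown, and the allele, the strain, the age and the sex are not stated in the labels. The labels name no treatment and no transgene. The callosum was cut from frozen brain sections and the optic nerve was dissected as a tissue, so a library holds the RNA of every cell type in the dissected tissue. The comparisons ask how far the Zdhhc9 transcript fell in the knockout, and whether the transcripts of its relatives or of the Golga7 partners differed with it.

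Enzymes of the DHHC family, named for an Asp-His-His-Cys motif in their active site, attach palmitate to cysteines of other proteins and so hold these proteins at membranes. ZDHHC9 sits in the Golgi and, in work with human proteins, needs GOLGA7 (also called GCP16) as an accessory subunit to palmitoylate H-Ras and N-Ras. GOLGA7B is the closest relative of GOLGA7 and, in human cells, binds another family member, ZDHHC5. In humans, loss of ZDHHC9 is a cause of X-linked intellectual disability, and the title of the series ties the gene to oligodendrocytes, the cells that make myelin.

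The stretch that gives the enzymes their name shows how near the relatives are at the level the reads were counted. It is given below as coding-strand sequence of the GENCODE M21 transcripts (GRCm38, the same assembly as mm10), with the codons of the Asp-His-His-Cys motif in capitals. Zdhhc9 (ENSMUSG00000036985.11) lies on the minus strand of chromosome X from 48171969 to 48208878, Zdhhc14 (ENSMUSG00000034265.7) on the plus strand of chromosome 17 from 5492557 to 5753811, and Zdhhc18 (ENSMUSG00000037553.13) on the minus strand of chromosome 4 from 133605299 to 133650154. Each stretch has 78 bases within the open reading frame.
Zdhhc9: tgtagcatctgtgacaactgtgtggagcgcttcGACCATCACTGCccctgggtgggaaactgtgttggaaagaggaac
Zdhhc14: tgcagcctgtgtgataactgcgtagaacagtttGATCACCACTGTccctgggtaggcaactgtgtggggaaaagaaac
Zdhhc18: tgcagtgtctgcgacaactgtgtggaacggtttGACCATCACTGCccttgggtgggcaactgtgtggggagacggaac
Over this stretch Zdhhc9 was identical to Zdhhc18 at 82.1% of bases and to Zdhhc14 at 75.6%. Over the aligned whole coding sequences the identities were 65.6% and 66.4%.

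The partners were compared in the same way. Golga7 (ENSMUSG00000015341.15) lies on the minus strand of mouse chromosome 8 from 23241346 to 23257074, and Golga7b (ENSMUSG00000042532.13) on the plus strand of chromosome 19 from 42247574 to 42270348. The most alike stretch of 78 bases in frame is shown, with the 17 bases at which the pair differs in capitals.
Golga7: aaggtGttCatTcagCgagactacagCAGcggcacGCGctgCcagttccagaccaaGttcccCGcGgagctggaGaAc
Golga7b: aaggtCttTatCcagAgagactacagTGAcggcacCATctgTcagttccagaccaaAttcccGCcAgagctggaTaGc
The whole coding sequences of the pair were 72.4% identical over 406 aligned bases. No run of 31 bases was shared between any of the 5 genes. With other genes, 4.9% of the runs of 31 bases in Golga7 transcripts were shared in the same direction, all with processed pseudogenes (Gm6829, Gm8508 and Gm29041) that had totals of 15.8, 12.8 and 1.01 estimated counts over all 20 libraries. On the opposite strand, 5.1% of the Golga7 runs were shared, with the gene Gm45412. For the other members the shared part was at most 0.407%, and Zdhhc18 overlaps the pseudogene Gm13213 on its own strand.

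Library totals in estimated counts lay between 17333746 and 25028817 for knockout callosum, 15401130 and 25375187 for wild-type callosum, 18837907 and 25866142 for knockout optic nerve, and 22299837 and 26095622 for wild-type optic nerve. Levels are given as CPM, the count of a gene scaled to the library's total and by TMM factors over all libraries, and differences as log2 fold changes, knockout over wild type, from edgeR's quasi-likelihood test with Benjamini-Hochberg adjustment over all genes tested. A gene was called at an adjusted p under 0.05. Some callosum and optic nerve libraries carry the same number, but nothing in the labels says how animals map to libraries. The p-values thus measure the spread between these libraries. Ddx3y, a gene of the Y chromosome, was at 58.4 to 123 CPM over the 20 libraries and Xist was listed at 0 in each of them. Markers of mature oligodendrocytes were high in all groups, and markers of neurons were far above 0 in callosum and lower in optic nerve. Fewer cells of a type and less RNA per cell cannot be told apart in such tissue libraries.

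Zdhhc9 fell to 25.9% of its wild-type level in callosum and to 30.8% in optic nerve, and counts of the gene remained in every knockout library. The counts are per gene and the allele is not stated, so whether a full-length transcript remained was not tested. In corpus callosum its lowest, median and highest levels were 40.8, 48.25 and 56.02 CPM in the 6 knockout libraries, against 192, 185.8, 185.9, 201 and 152.9 CPM in the 5 wild-type libraries. In optic nerve the levels of the single libraries were 51.44, 35.42, 47.7, 35.1 and 43.02 CPM in knockout, against 134.9, 144.7, 115 and 150.4 CPM in wild type. Every knockout library lay below every wild-type library of its tissue, with wide gaps between the ranges and no knockout library near 0. The estimated counts behind these levels were 672.2 or more in each knockout library, so the remaining signal is well above counting error. Markers of microglia also separated the genotypes in callosum: the summed level of 5 markers ranged from 204 to 255 CPM in knockout and 261 to 286 CPM in wild-type libraries, 0 of 5 had a positive fold change (median -0.28) and 0 were called. In optic nerve these sums ranged from 465.6 to 655.8 CPM in knockout and 485.9 to 591.7 CPM in wild-type libraries, and their part in any value of the 5 genes was not tested.

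On the log2 scale Zdhhc9 changed by -1.95 in corpus callosum (SE 0.0993, 95% interval -2.16 to -1.73, adjusted p = 1.8e-06), and the interval spans 22.3% to 30.1% of the wild-type level. In optic nerve the change was -1.7 (SE 0.129, interval -1.98 to -1.41, adjusted p = 0.000544), spanning 25.3% to 37.5%. Zdhhc9 had the smallest p of all genes tested in each tissue. It was called as 1 of the 5 members in each tissue, in a background where 0.0387% of 15519 genes in callosum and 0.0129% of 15556 in optic nerve were called. The same 1 of 5 had genotypes that did not overlap, against 0.889% of all genes in callosum and 2.05% in optic nerve. Zdhhc9 is the gene targeted in these mice, so these counts follow from the design and say nothing of the members as a set. No other member was called or had genotypes that did not overlap in either tissue.

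The knockout effect on Zdhhc9 did not pass the test for a difference between tracts. The difference, optic nerve minus callosum, was 0.26 on the log2 scale (SE 0.166, interval -0.088 to 0.60, adjusted p = 0.764). No gene of 16440 was called in that test, a share of 0%, with edgeR, DESeq2 or limma-voom, while 1123 genes had an unadjusted p under 0.05 with edgeR. None of the other members passed there either, with differences from 0.0808 for Zdhhc14 to 0.23 for Golga7b and adjusted p of 0.786 or more.

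**Figure D1:**
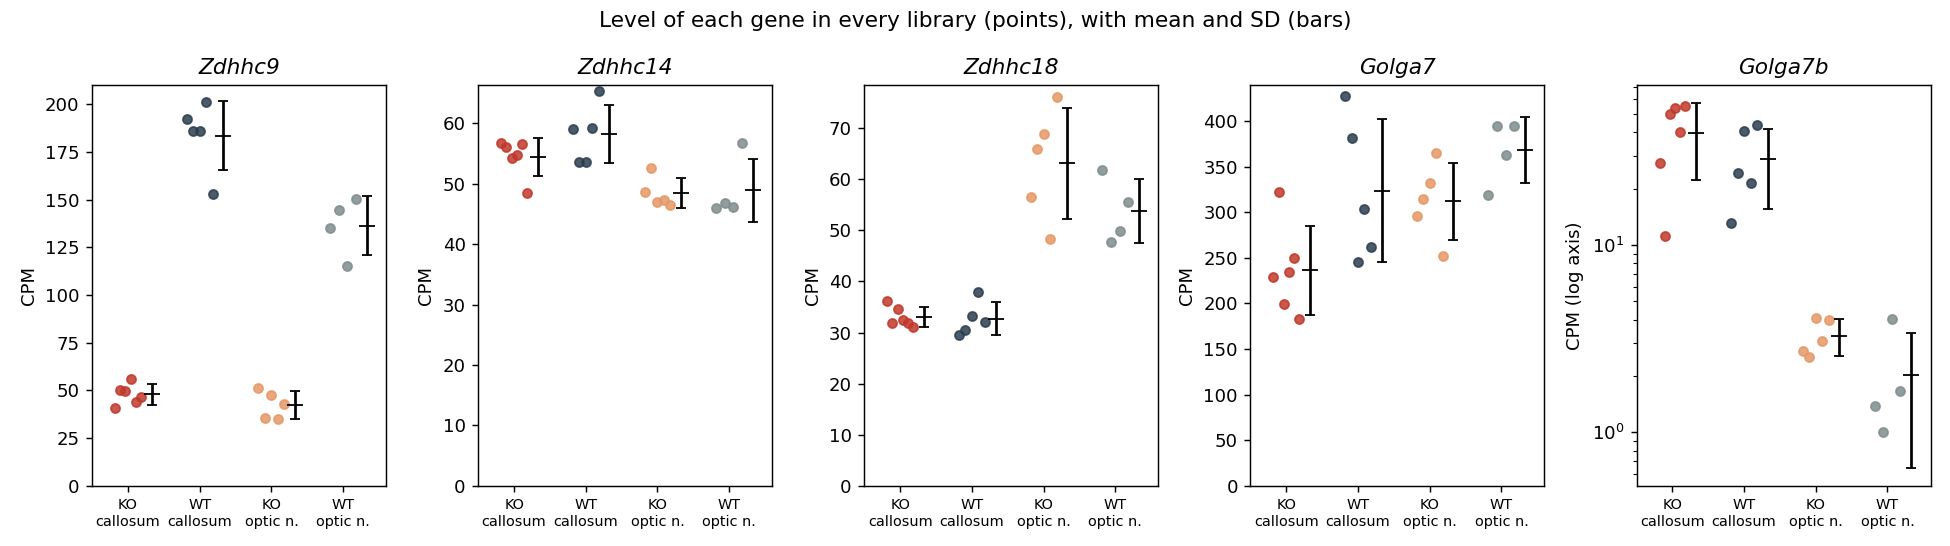
Level of each of the 5 genes in CPM (vertical axis, logarithmic for Golga7b only) in every library of the 4 groups; points are libraries and bars are the mean with the SD. The knockout and wild-type points of Zdhhc9 do not overlap in either tissue, those of the other 4 genes do, and Golga7b lies far lower in optic nerve than in callosum.

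Neither close relative passed the test for genotype in either tract. Zdhhc14, an enzyme of the same branch of the family as Zdhhc9, had lowest, median and highest levels of 48.47, 55.36 and 56.75 CPM in knockout callosum, against 59.12, 53.64, 53.67, 59.18 and 65.28 CPM in wild-type callosum. In optic nerve Zdhhc14 was at 48.67, 52.61, 46.97, 47.26 and 46.5 CPM in knockout, against 46.01, 46.8, 46.19 and 56.68 CPM in wild-type libraries. The ranges of the genotypes overlapped in both tissues. The coefficient of variation of Zdhhc14 was 5.68% in knockout and 8.3% in wild-type callosum, and 5.14% in knockout and 10.6% in wild-type optic nerve. Its log2 fold change was -0.105 in callosum (SE 0.0798, interval -0.279 to 0.0679, adjusted p = 0.59) and -0.0325 in optic nerve (SE 0.0877, interval -0.225 to 0.16, adjusted p = 0.96). The upper ends of the intervals correspond to 105% and 112% of the wild-type level. Without WT_CCg_7198587 the callosum value was -0.0368.

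Zdhhc18, the relative whose motif stretch is nearest to that of Zdhhc9, had lowest, median and highest levels of 31.07, 32.19 and 36.25 CPM in knockout callosum, against 29.6, 30.51, 33.23, 37.89 and 32.12 CPM in wild-type callosum. The range of the knockout libraries lay inside that of the wild-type libraries. The log2 fold change there was 0.00458 (SE 0.0867, interval -0.184 to 0.193, adjusted p = 0.989), and its sign turned under several other settings. In optic nerve Zdhhc18 was at 56.46, 65.87, 68.8, 48.36 and 76.15 CPM in knockout libraries, against 61.82, 47.76, 49.92 and 55.59 CPM in wild-type libraries. There 3 of 5 knockout libraries were over the highest wild-type library and the other two fell within the wild-type range. The difference was 0.21 on the log2 scale (SE 0.132, interval -0.0762 to 0.503, adjusted p = 0.845), so the interval spans 94.9% to 142% of the wild-type level and the difference did not pass. The highest of these libraries, KO_ON_719856, also had the highest summed level of 3 photoreceptor markers, 45.53 CPM against 11.72 CPM or less in every other optic nerve library, and the lowest summed level of mature oligodendrocyte markers in the tissue. Its sums of neuron (360.4 CPM), astrocyte (11357 CPM) and microglia markers (655.8 CPM) were the highest in the tissue as well. The part of these markers in the Zdhhc18 value was not tested. Without KO_ON_719856 the log2 fold change was 0.147.

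**Figure D2:**
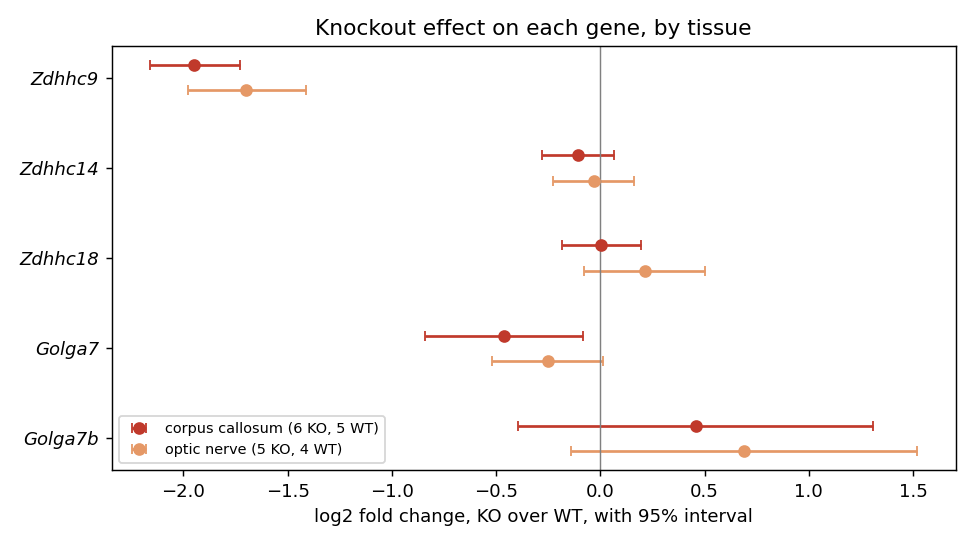
Log2 fold change, knockout over wild type, of each gene (horizontal axis) with its 95% interval, in corpus callosum and optic nerve. The intervals of Zdhhc9 lie between -2.16 and -1.41, those of Zdhhc14, Zdhhc18 and Golga7b hold 0 in both tissues, that of Golga7 lies below 0 in callosum and holds 0 in optic nerve, and those of Golga7b are the widest of the 5 genes.

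Per length, Zdhhc9 was near Zdhhc14 in both knockout tracts, and near Zdhhc18 in knockout optic nerve but above it in knockout callosum. Levels in CPM were divided by the length of the longest coding transcript, 2982 bases for Zdhhc9, 3078 for Zdhhc14 and 4580 for Zdhhc18. For Zdhhc9 in knockout libraries this takes the remaining counts to come from a full-length transcript, which was not tested. In callosum, Zdhhc9 was at 16.07 ± 1.79 CPM per kb, Zdhhc14 at 17.69 ± 1.005 and Zdhhc18 at 7.21 ± 0.44 in knockout libraries (SD, n = 6). In wild-type callosum the same order gave 61.54 ± 6.11, 18.9 ± 1.57 and 7.134 ± 0.71 CPM per kb (SD, n = 5). Zdhhc9 was thus the highest of the 3 enzymes in wild-type callosum and overlapped with Zdhhc14 in knockout callosum.

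In optic nerve, Zdhhc9 was at 14.26 ± 2.44, Zdhhc14 at 15.73 ± 0.81 and Zdhhc18 at 13.78 ± 2.37 CPM per kb in knockout libraries (SD, n = 5), within their spread of each other. In wild-type optic nerve they were at 45.69 ± 5.21, 15.89 ± 1.69 and 11.74 ± 1.38 CPM per kb (SD, n = 4). The share of Zdhhc9 in the summed level of the 3 enzymes was 39.2% ± 3.17 in knockout callosum, against 70.2% ± 3.19 in wild-type callosum. In optic nerve the share was 32.5% ± 3.99 in knockout, against 62.2% ± 2.36 in wild-type libraries, and the median length of coding transcripts in place of the longest gave 33.1% and 62.9%.

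The summed level of all 3 enzymes was 40.97 ± 1.93 CPM per kb in knockout callosum, against 87.57 ± 5.63 in wild-type callosum, and 43.77 ± 3.601 in knockout optic nerve, against 73.32 ± 6.78 in wild-type optic nerve. Zdhhc14 and Zdhhc18 alone summed to 24.9 ± 1.27 in knockout callosum, against 26 ± 1.78 in wild-type callosum. In optic nerve they summed to 29.5 ± 2.46 in knockout, against 27.6 ± 2.32 in wild-type libraries. The sum of the relatives overlapped between the genotypes in both tissues, while the sum with Zdhhc9 did not.

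Golga7, the accessory subunit of the enzyme in human work, was lower on average in knockout callosum, but the difference did not pass. Its lowest, median and highest levels were 182.8, 231.7 and 321.9 CPM in knockout callosum, against 427.3, 381.1, 244.9, 303 and 262 CPM in wild-type callosum. In that tissue 4 of 6 knockout libraries were under the lowest wild-type library, and the other two, KO_CCg_29 and KO_CCg_717651, lay inside the wild-type range. The log2 fold change of Golga7 there was -0.46 (SE 0.174, interval -0.84 to -0.0854, unadjusted p = 0.0202, adjusted p = 0.39, edgeR).

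In optic nerve Golga7 was at 295.9, 314.7, 332.2, 365.4 and 252 CPM in knockout, against 319, 394.9, 362.9 and 395 CPM in wild-type libraries. There 3 of 5 knockout libraries were under the lowest wild-type library, and the ranges overlapped. The fold change was -0.25 on the log2 scale (SE 0.122, interval -0.519 to 0.0147, adjusted p = 0.845). Per length Golga7 was the most abundant of the 5 genes in every group, with 121.4 ± 24.99 CPM per kb in knockout and 166.4 ± 40.2 in wild-type callosum, and 160.4 ± 21.7 in knockout and 189.2 ± 18.5 in wild-type optic nerve.

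Golga7 moved with the markers of mature oligodendrocytes. The summed level of the 8 markers, which include Mbp, Mog and Cnp, ranged from 33836 to 66122 CPM in knockout callosum, against 53334 to 89422 CPM in wild-type callosum, and from 59540 to 84751 CPM in knockout optic nerve, against 76658 to 92779 CPM in wild-type optic nerve. None of the 8 was called in either tissue; 0 of 8 had a positive fold change in callosum (median -0.50) and 3 of 8 in optic nerve (median -0.11). The Pearson r of Golga7 with the mean log2 level of these markers was 0.955 over the 11 callosum libraries, 0.923 over the 9 optic nerve libraries and 0.933 over the deviations of all 20 libraries from their group means; the libraries share their scaling, so these values are descriptions. With that marker level as a covariate, an alternative added after the data were seen, the log2 fold change of Golga7 was 0.0168 in callosum (SE 0.108, adjusted p = 0.994) and -0.148 in optic nerve (SE 0.0718, adjusted p = 0.995, edgeR).

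By the same measure over all 20 libraries, among 12975 genes, those most like Golga7 included Psat1 (r = 0.977), an enzyme of serine synthesis, and Pip4k2a (0.976), a phosphoinositide kinase. Over deviations from the group means they included Pip4k2a (0.975) and Sccpdh (0.974).

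**Figure D3:**
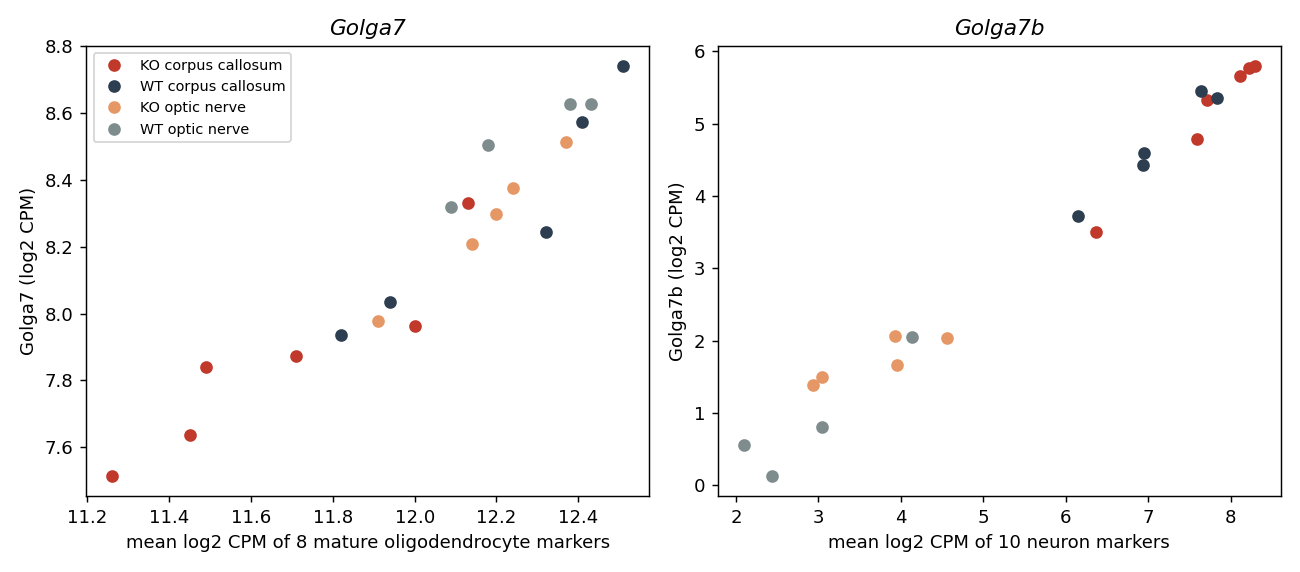
Log2 CPM of Golga7 against the mean log2 CPM of 8 mature oligodendrocyte markers (left), and of Golga7b against that of 10 neuron markers (right); each point is a library, coloured by group. Both genes climb with their markers across the libraries of all groups.

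Golga7b, the partner of ZDHHC5 in human cells, was the most variable member and did not pass in either tract. Its lowest, median and highest levels were 11.2, 45.15 and 55.26 CPM in knockout callosum, against 13.15, 24.15, 40.68, 21.4 and 43.82 CPM in wild-type callosum. There 3 of 6 knockout libraries lay above every wild-type library and 1, KO_CCg_29, lay below all of them. Its log2 fold change there was 0.46 (SE 0.392, interval -0.394 to 1.31, adjusted p = 0.632, edgeR), with a coefficient of variation of 44% in knockout and 45.8% in wild-type libraries. It was 0.282 without WT_CCg_28 and 0.683 without WT_CCg_7198587, and was not called in either fit. In optic nerve Golga7b was at 2.729, 2.524, 4.092, 3.081 and 3.999 CPM in knockout, against 1.381, 1.004, 4.041 and 1.66 CPM in wild-type libraries. Of the wild-type libraries, 3 lay below every knockout library and WT_ON_717652 lay among the highest. On the log2 scale the difference was 0.69 (SE 0.378, interval -0.142 to 1.52, adjusted p = 0.845), from 24.02 to 96.09 estimated counts per library. Without WT_ON_717652 it was 1.26, with an adjusted p of 0.552.

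Golga7b moved with the markers of neurons. The summed level of the 10 markers, which include Snap25, Syt1 and Nefl, ranged from 1126 to 4396 CPM in knockout callosum, against 1014 to 3111 CPM in wild-type callosum, and from 175.2 to 360.4 CPM in knockout optic nerve, against 140.2 to 296.4 CPM in wild-type optic nerve. None was called for genotype; 10 of 10 had a positive fold change in callosum (median 0.65) and 8 of 10 in optic nerve (median 0.49). The r of Golga7b with their mean log2 level was 0.972 in callosum, 0.891 in optic nerve and 0.916 over deviations from group means. With the neuron level as a covariate the log2 fold change of Golga7b was -0.29 in callosum (SE 0.102, adjusted p = 0.515) and 0.32 in optic nerve (SE 0.267, adjusted p = 0.86, edgeR), so the sign in callosum turned. In the same fit Golga7 was at -0.206 in callosum (SE 0.0958, adjusted p = 0.599).

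The 3 genes most like Golga7b over all libraries were Snap25 (r = 0.993), a synaptic SNARE protein and also 1 of the markers, Nptx1 (0.992), a neuronal pentraxin, and Gprin1 (0.991). Over deviations from the group means they were Rab26 (0.951), Rell2 (0.946) and Atp6v1g2 (0.944). In callosum, over both genotypes, the r of Golga7 with the neuron markers was -0.912. That of Golga7b with the oligodendrocyte markers was -0.724. Over deviations from the group means these values were -0.587 and -0.649, and over the optic nerve libraries -0.318 and -0.431. The r between the partners themselves was not computed.

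Of the enzymes, Zdhhc9 had an r with the oligodendrocyte markers of 0.695 in callosum and 0.305 in optic nerve, and Zdhhc18 had -0.266 and -0.693. Over deviations from the group means the values were 0.177 for Zdhhc9 and -0.358 for Zdhhc18. The values within a tract pool both genotypes, so for Zdhhc9 they hold the effect of the knockout itself. With the microglia markers the r of Zdhhc9 was 0.878 in callosum and 0.316 over deviations from the group means. Zdhhc9 was at -1.93 with the neuron level and -1.87 with the oligodendrocyte level as a covariate in callosum, and stayed called. In optic nerve the oligodendrocyte level gave 0.133 for Zdhhc18 (SE 0.125, adjusted p = 0.995, edgeR), against 0.213 without it. For Zdhhc18 the values were -0.0151 and -0.0461 in callosum, and for Zdhhc14 in optic nerve the oligodendrocyte level gave 0.0107, all within their SE of 0. The genes most like Zdhhc18 over all libraries were Mmp14 (r = 0.967), a membrane metalloproteinase, Tmem43 (0.962) and Plcd1 (0.961). Those most like Zdhhc14 were Ctnnbl1 (0.855), Grm3 (0.842) and Tubb2b (0.839). Those most like Zdhhc9 were Ephb1 (0.728), Fam131b (0.715) and Ggt1 (0.709), again over libraries of both genotypes. Within groups, by deviations from the group means, the likeness of the enzymes to any gene was lower than that of the partners: the highest was 0.815 for Zdhhc18 with Rspo1, 0.794 for Zdhhc14 with Stx6 and 0.753 for Zdhhc9 with Prox2.

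Callosum libraries carry either 2-digit or longer numbers in their names, and the partners differed between these formats. Golga7b averaged 19.35 CPM in 2 knockout and 18.65 CPM in 2 wild-type libraries with 2-digit numbers, and 49.93 CPM in 4 knockout and 35.3 CPM in 3 wild-type libraries with longer numbers. Golga7 averaged 275.4 CPM in knockout and 404.2 CPM in wild-type libraries with 2-digit numbers, and 216.5 CPM in knockout and 270 CPM in wild-type libraries with longer numbers. What the formats stand for is not stated. Within the formats the log2 fold change of Golga7 was -0.518 for 2-digit and -0.335 for longer numbers, that of Golga7b was 0.0957 and 0.48, and that of Zdhhc9 was -2.02 and -1.89. Neither partner was called within a format or with the format as a covariate. In optic nerve 2 knockout libraries have a letter in their number and no wild-type library does; without them Zdhhc9 was at -1.71 (adjusted p = 0.0129, edgeR).

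The tracts themselves differed most for Golga7b and Zdhhc18. In wild-type mice, where 51.3% of 16440 genes were called between tracts (25.3% higher and 26% lower in optic nerve), 4 of 5 members were called, Zdhhc18 higher and Zdhhc9, Zdhhc14 and Golga7b lower in optic nerve. In knockout mice, where 62.9% were called (31.9% higher and 31% lower), 3 of 5 were called, Zdhhc18 and Golga7 higher and Golga7b lower. With shares of this size among all genes, the count of members called is not a result about the members. The comparisons use the same libraries as the genotype comparisons, and both tract comparisons come from 1 fit.

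Golga7b in wild-type optic nerve was at 7.02% of its level in wild-type callosum, or -3.83 on the log2 scale (SE 0.491, adjusted p = 1.81e-06), and in knockout mice it was at 8.24% (-3.6, SE 0.428, adjusted p = 4.08e-07). All 10 neuron markers were also lower in wild-type optic nerve, with a median of -3.73; their part in the Golga7b value was not tested. Zdhhc18 was 1.64 times as high in wild-type optic nerve as in wild-type callosum (log2 0.72, SE 0.114, adjusted p = 2.38e-05) and 1.91 times in knockout mice (0.94, SE 0.103, adjusted p = 1.47e-07). The ranges of the tracts did not overlap for either gene in either genotype. How many of all genes have no overlap between tracts was not computed, so this only describes these genes. Markers of fibroblasts and meninges summed to 2361 to 3843 CPM in wild-type optic nerve, against 35.76 to 76.92 CPM in wild-type callosum. Higher in wild-type optic nerve, too, were 5 of 5 microglia markers (median log2 fold change 1.05) and 4 of 4 endothelial markers (0.649). The same held for 5 of 6 astrocyte markers (0.6). The part of any of these cell types in the Zdhhc18 value was not tested.

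Zdhhc9 was lower in wild-type optic nerve than in wild-type callosum, with libraries that did not overlap (the share over all genes was not computed). It was at 74.3% (log2 -0.43, SE 0.123, adjusted p = 0.00625, edgeR). In knockout mice the corresponding value was 88.8% (-0.17, SE 0.112, adjusted p = 0.19) with overlapping ranges; the difference between these values is the test of the knockout effect between tracts given above, which did not pass. Zdhhc14 was at 84.1% in wild-type optic nerve (-0.25, SE 0.0814, adjusted p = 0.0143), with overlapping libraries, and this call was lost without WT_CCg_717652 (0.0516) or WT_ON_701297 (0.0837). In knockout mice it was at 88.9% (-0.17, SE 0.0734, adjusted p = 0.0507), just above the threshold, and 7 of the 20 fits that left out a library called it, with adjusted p down to 0.0159 without KO_CCg_719856 (edgeR). Golga7 was at 132% in knockout optic nerve (0.40, SE 0.152, adjusted p = 0.0262). That call was lost without KO_CCg_693451, KO_CCg_719856, KO_ON_693452 or KO_ON_717651, at adjusted p from 0.0528 to 0.0741 (edgeR). In wild-type mice Golga7 did not pass (0.185, SE 0.168, adjusted p = 0.381).

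Beyond the close relatives, no other DHHC enzyme was called. Among all genes 0.0387% were called in callosum and 0.0129% in optic nerve. A short list is likely to hold no call at such shares, so the 0 calls are not a result about these enzymes. Of 21 others, 18 were tested in callosum and 17 in optic nerve. Their median log2 fold change was -0.00635 in callosum, where the median of all genes was -0.0134, and -0.0373 in optic nerve, where it was 0.0119. Zdhhc20, an enzyme of the plasma membrane, was at 105 ± 33.2 CPM in knockout and 140 ± 52.9 CPM in wild-type callosum (-0.418, SE 0.251, adjusted p = 0.512), and at 125 ± 27.7 CPM in knockout and 164 ± 14.6 CPM in wild-type optic nerve (-0.41, SE 0.154, adjusted p = 0.845, edgeR). Zdhhc13, which carries ankyrin repeats, had opposite signs in the tracts, 0.28 in callosum (adjusted p = 0.397) and -0.256 in optic nerve (adjusted p = 0.845), and Zdhhc4 was at -0.167 and 0.0558. Zdhhc5, the human partner enzyme of GOLGA7B, was at 42.1 ± 4.27 CPM in knockout and 40.8 ± 3.09 CPM in wild-type callosum (0.033, SE 0.0878, adjusted p = 0.887), and at 50.7 ± 4.74 CPM in knockout and 51.7 ± 6.77 CPM in wild-type optic nerve (-0.0488, SE 0.10, adjusted p = 0.941). It was named for its role and not by the rule for listed genes.

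The enzymes that remove palmitate did not pass either. All 9 were tested, 0 were called, and their median was 0.0142 in callosum and -0.052 in optic nerve. With 0.0387% of all genes called in callosum and 0.0129% in optic nerve, 0 calls of 9 is not a result about these genes. Lypla1, an acyl-protein thioesterase, was at 0.0922 in callosum and -0.246 in optic nerve. Ppt2, a lysosomal thioesterase, was at 0.0142 and 0.142, and Abhd17b, which acts on N-Ras, at -0.33 and -0.18, with adjusted p of 0.56 or more for all 3 genes.

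Among 8 Ras family genes with a palmitoylated product, the class of substrate best known for ZDHHC9, 0 were called, with medians of -0.0769 in callosum and -0.0522 in optic nerve. The shares called among all genes were 0.0387% in callosum and 0.0129% in optic nerve, so 0 calls of 8 is not a result about them. Hras, a substrate named in human work, was at 63.5 ± 11.7 CPM in knockout and 55.7 ± 11.9 CPM in wild-type callosum (0.177, SE 0.165, adjusted p = 0.661), and at 44.7 ± 4.14 CPM in knockout and 39.4 ± 1.45 CPM in wild-type optic nerve (0.166, SE 0.08, adjusted p = 0.845, edgeR). Nras, also named there, had the opposite sign. It was at 108 ± 21 CPM in knockout and 128 ± 32 CPM in wild-type callosum (-0.258, SE 0.172, adjusted p = 0.548, edgeR). In optic nerve Nras was at 101 ± 20.2 CPM in knockout and 118 ± 5.07 CPM in wild-type libraries (-0.228, SE 0.142, adjusted p = 0.845, edgeR). Rras was at -0.40 in callosum (adjusted p = 0.381) and 0.0217 in optic nerve, and Rras2 at -0.0718 and 0.34 (adjusted p = 0.845 in optic nerve). These are transcript levels and say nothing of palmitate on the proteins.

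The other golgins, coiled-coil proteins of the Golgi that share part of a name with Golga7, gave 0 calls of 6, with medians of -0.00856 in callosum and -0.0182 in optic nerve. At the shares called among all genes, 0.0387% in callosum and 0.0129% in optic nerve, this count is not a result about the golgins. Golga2 (GM130) was at -0.0189 and 0.0719, Golga5 at -0.0958 and -0.0549, and Golgb1 (giantin) at 0.112 and 0.0931.

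**Figure D4:**
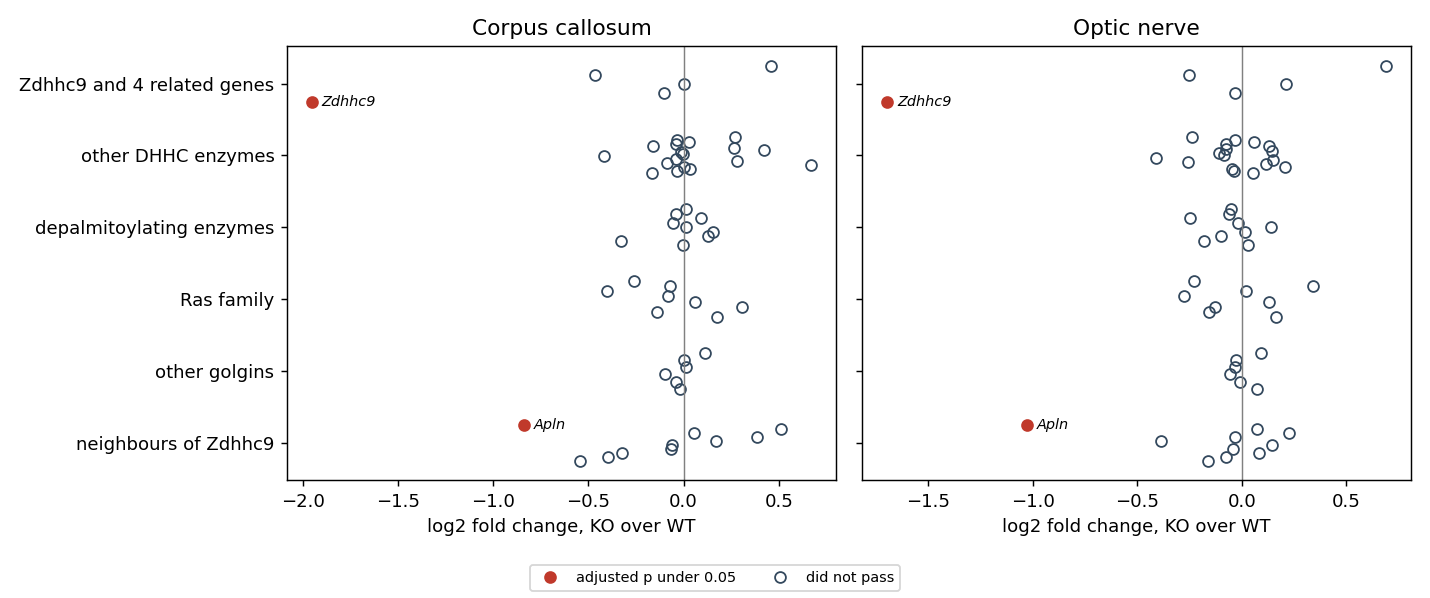
Log2 fold change, knockout over wild type, of every tested gene in 6 lists, in corpus callosum (left) and optic nerve (right); filled points passed at an adjusted p under 0.05. Zdhhc9 and its neighbour Apln are the filled points in both tissues.

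Of the 10 nearest tested protein-coding genes around Zdhhc9 on chromosome X, 5 on each side, 1 was called in each tissue, and it was Apln in both. The shares called among all genes were 0.0387% in callosum and 0.0129% in optic nerve. Apln, which codes for the peptide ligand apelin, ends 137.1 kb before the start coordinate of Zdhhc9. It was at 23.6 ± 2.82 CPM in knockout and 41.8 ± 6.67 CPM in wild-type callosum (-0.835, SE 0.121, adjusted p = 0.044), and at 34 ± 3.31 CPM in knockout and 68.4 ± 8.08 CPM in wild-type optic nerve (-1.03, SE 0.105, adjusted p = 0.00603, edgeR). In callosum the call was lost in 10 of the 11 fits that left out a library, with adjusted p up to 0.162, and held without WT_CCg_685232, and it was also lost in 5 of 12 other settings; in optic nerve it held in all 9 such fits and was lost when the 2 libraries with a letter in their number were left out (-0.935, adjusted p = 0.117). The genes between Apln and Zdhhc9, Xpnpep2 and Sash3, were not called. Sash3 was at -0.544 in callosum (SE 0.2, unadjusted p = 0.0183, adjusted p = 0.383, edgeR) and -0.162 in optic nerve. Xpnpep2 was at 0.169 in callosum and -0.386 in optic nerve. Smarca1, a chromatin remodeller, was at 0.51 in callosum (SE 0.185, adjusted p = 0.381) and 0.074 in optic nerve, and Ocrl, a phosphoinositide phosphatase, at 0.386 (SE 0.132, adjusted p = 0.361) and -0.0324. The medians of the 10 neighbours were -0.0622 in callosum and -0.0363 in optic nerve.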

How the data were processed

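RNA of corpus callosum and optic nerve was made into libraries with a stranded mRNA kit, per the labels' protocols. The authors deposited an estimated count (expected count) per gene and library, not scaled to a common total; 30.14% of the values above 0 are whole within a tolerance of 1e-06, and 0 pairs of libraries were identical. Per the submitters' processing notes the genome build was mm10. The version of the quantifier, its annotation and the length of the reads were not given in the sources used here. Gene identifiers were matched without their version to GENCODE M21, which gave a symbol for 46005 of 46517 genes and the printed positions and sequences.

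Counts were rounded and scaled with TMM factors after filterByExpr had removed low genes (minimum count 10 and total 15). edgeR 4.0.16 (R 4.3.3) fitted quasi-likelihood models for each tissue alone, and 1 model of all 20 libraries in 4 groups for the tract comparisons and the difference of effects. SEs were derived from each fold change and F statistic. The biological coefficient of variation was 23.7% in callosum and 20.2% in optic nerve. Log2 CPM used a prior count of 2, and likeness used genes whose mean log2 CPM reached 1. Counting of reads that fit several genes was left to the quantifier. Alternatives used DESeq2 1.42.0, limma 3.58.1 (voom), other scaling, no filter, marker or format covariates, format subsets, left-out libraries and a replicate block. The model fits were also run on simulated data with the same spread for every gene, which cannot decide between the tools where their calls differ here.

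The members, gene lists and markers were chosen with earlier results of these data known. Named genes are the members, from each list up to 3 tested genes with the smallest p in either genotype comparison and every gene called, and for each member the 3 genes most like it by each measure, leaving out pseudogenes and unnamed predicted genes. A gene that this rule selects is not reported here.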

Additional observations from a re-analysis of the deposited data

Results flagged for a closer look

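In 2 of 20 sets of libraries (5 genes in 4 groups), 1 library stood far from the others for its gene, where chance gives about 1 in 20. Both concerned Zdhhc14. The lowest of the 6 knockout callosum libraries, KO_CCg_719856, was at 48.47 CPM, with the nearest other library at 54.24 CPM. The highest of the 4 wild-type optic nerve libraries, WT_ON_719857, was at 56.68 CPM, with the nearest at 46.8 CPM. Without WT_ON_719857 the log2 fold change of Zdhhc14 in optic nerve was 0.0509, and without KO_CCg_719856 that in callosum was -0.0723; neither was called. Leaving out WT_CCg_7198587, which was not far from the others by this measure, moved the callosum value further, to -0.0368.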

How the results depend on the processing

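Zdhhc9 stayed called in both tracts under every alternative except callosum libraries with 2-digit numbers only (-2.02, 2 against 2 libraries, adjusted p = 0.582); without each library in turn it ran from -1.99 to -1.91 in callosum and from -1.77 to -1.64 in optic nerve. No other member was called for genotype under any alternative run. The sign turned for Zdhhc18 in callosum with upper quartile factors (-0.0195), the neuron level (-0.0151), the oligodendrocyte level (-0.0461), longer numbers only (-0.0996) and among left-out libraries (-0.0283 to 0.0659). It turned for Golga7b in callosum with the neuron (-0.29) and oligodendrocyte level (-0.387), for Golga7 in callosum with the oligodendrocyte level (0.0168), for Zdhhc14 in callosum with 2-digit numbers (0.0398), and for Zdhhc14 in optic nerve with the oligodendrocyte level (0.0107) and among left-out libraries (-0.0643 to 0.0509). The difference of the Golga7b effect between tracts ran from -0.0334 to 0.813 among left-out libraries. The causes were not tested.

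Between tracts, Zdhhc14 in wild type was no longer called with no filter (-0.221) and ran from -0.296 to -0.197 among left-out libraries; in knockout it became called with DESeq2 size factors (-0.188) and the DESeq2 Wald test (-0.188) and in 7 of 20 fits without a library, and ran from -0.227 to -0.155. Golga7 in knockout ran from 0.318 to 0.511. Genes called in callosum, 6 in the fit reported, numbered 174 with DESeq2, 3 with limma-voom, 41 with all libraries in 1 fit, 3 with the oligodendrocyte level, 2 with longer numbers, 10 with number format as a covariate, 0 with 2-digit numbers (984 at an unadjusted p under 0.05) and 2 to 41 among left-out libraries, with 41 without WT_CCg_685232. In optic nerve, 2 in the fit reported, they numbered 35 with DESeq2 and 1 with 6-digit numbers only. The difference between tracts gave 0 to 1 among left-out libraries, with 1 without KO_ON_717651.

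Some libraries of the tracts share a number. Their deviations from group means correlated at 0.0178, -0.153 and 0.134 in knockout and -0.0532 in wild type. Of 3 knockout callosum libraries, 1 correlated best with its own number. The main fits did not take the numbers to pair samples. Correlations between separately dissected tissues cannot decide whether a shared number is a shared animal. With the number as a replicate block, 8339 genes were called between tracts in wild type and 10198 in knockout, and no member's call changed. Within a tract the genotypes share no number, so no paired analysis was possible because there were no pairs. Golga7b in optic nerve rests on few counts, which limits its precision.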
